A study of Homo sapiens with 12 samples.

Results

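The Deltex ubiquitin ligases and the Notch receptors, cofactors and target gene they act beside were followed here across 2 human diffuse large B-cell lymphoma (DLBCL) cell lines. The group holds 10 of the 58884 genes in the count table: the ligases DTX1, DTX2, DTX3 and DTX4, the receptors NOTCH1 and NOTCH2, the DNA-binding factor RBPJ, the coactivators MAML1 and MAML2, and the target gene HES1. The list was chosen by a measured value: DTX2 was the 1 gene called between rituximab (R) and ofatumumab (OF) in U2932, and the other 9 genes were added by symbol for their place in the pathway. The antibody comparisons of DTX2 in U2932 are therefore given as a description with no test. All 10 genes had counts in every library and passed the filter on low counts in both lines.

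Both R and OF are antibodies against CD20, the B-cell surface protein encoded by MS4A1. RNA was sequenced from U2932 and TMD8, each labelled genotype WT and DLBCL, 4 h after an antibody (R, OF or human IgG1 as isotype control) was added at 20 µg/mL. These 6 conditions had 2 libraries each, from 2 cultures of a line that had been split and grown apart for a week. P-values of antibody comparisons within a line therefore measure the spread between such libraries of 1 line. Those of line differences and interactions take 1 spread per gene over both lines. Libraries are called culture 1 or 2 after the number in their titles, which the labels do not tie to a culture. No untreated cells and no Notch ligand or inhibitor were among the groups used here, and each line stands for 1 tumour.

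Notch receptors are cleaved after a ligand on a neighbouring cell binds them, and the freed intracellular part enters the nucleus, where it joins RBPJ and a Mastermind-like coactivator to switch on genes such as HES1. Deltex proteins are ligases that attach ubiquitin to other proteins, and DTX1, DTX2 and DTX4 carry WWE domains through which the fly protein binds the intracellular part of Notch. In B cells the pathway is best known for NOTCH2, which marginal zone B cells need, and NOTCH1 and NOTCH2 are recurrently mutated in lymphomas.

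The promoters of HES1 and DTX2 are shown because HES1 is the classical RBPJ target of the list and DTX2 is the gene that the list was built on. The RefSeq promoter table, on GRCh38.p14, held a window for 8 of the 10 genes, and none for DTX1 and DTX3. The letters TGGGAA, the core of the RBPJ motif, were searched on both strands in the 250 bases before each RefSeq start, and matches are in capitals (TTCCCA is a match on the other strand). Both sequences are on the plus strand, run 5′ to 3′ and stop before the gene's first base in GENCODE 29.
HES1, chr3:194135898-194136144: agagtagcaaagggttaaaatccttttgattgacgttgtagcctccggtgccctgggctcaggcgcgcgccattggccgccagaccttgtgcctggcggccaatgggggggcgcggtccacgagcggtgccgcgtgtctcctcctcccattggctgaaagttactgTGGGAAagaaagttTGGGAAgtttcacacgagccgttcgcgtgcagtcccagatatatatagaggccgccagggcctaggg
DTX2, chr7:76461459-76461675: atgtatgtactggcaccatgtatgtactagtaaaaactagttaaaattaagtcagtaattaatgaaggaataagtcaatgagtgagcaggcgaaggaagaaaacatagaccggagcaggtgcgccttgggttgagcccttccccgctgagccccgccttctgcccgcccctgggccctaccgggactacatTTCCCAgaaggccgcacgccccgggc

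The HES1 window held 2 matches on the same strand, beginning 84 and 70 bases before the start. The DTX2 window held 1 match on the minus strand, 59 bases before the start, and these bases were also part of a match to the core of the ZNF143 motif, found on either strand in 1.27% of all windows. One or more TGGGAA matches were found in 20.8% of 35116 promoter windows, in 3 of the 8 listed genes with a window (HES1, DTX2 and 1 of the 5 windows of RBPJ) and in 16 of the 59 pathway genes with one. The first share counts windows and the others count genes, some of which have several windows, so they are not on the same footing. A pair of same-strand matches beginning 14 bases apart, the spacing seen in HES1, were found in 5 windows (0.0142%), a spacing chosen after HES1 was seen. A match describes letters and not a site that is bound.

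Libraries held 15440226 to 27110612 counts. The 7 B-cell markers all averaged above 1 CPM (counts scaled to library size) in both lines, the 4 T-cell markers summed to at most 0.131 CPM, the 4 myeloid markers to at most 1.42 CPM and the 4 fibroblast markers to at most 1.25 CPM in U2932 and 6.07 CPM in TMD8, where COL1A1 averaged above 1 CPM. The isotype and OF libraries of culture 2 of TMD8 stood apart from the rest of that line: the share of ribosomal protein genes was 6.517% and 7.165%, where the other 4 had 10.01% to 10.8%, and that of mitochondrial genes was 3.989% and 3.731%, where they had 5.698% to 6.232%. In these 2 libraries long transcripts were favoured. Between the 2 cultures, the median log2 difference of the longest 10% of transcripts was 0.32 with isotype and 0.33 with OF, but -0.01 with R. Of the 10 genes, 8 were higher in culture 2 than in culture 1 with isotype and 9 with OF, against 5 with R. The largest of these differences was that of NOTCH1, at 2.09 on the log2 scale with isotype and 1.63 with OF. Each antibody difference of the 10 genes given for TMD8 is therefore also given without these 2 libraries. The fit without them holds 1 OF and 1 isotype library and takes its spread from the 2 R libraries, on the assumption that the lone libraries vary like those. Differences between culture 2 and culture 1 also went with GC content, the share of G and C bases. Over the genes tested, Spearman's correlation in TMD8 was 0.37 with isotype, 0.28 with OF and 0.36 with R. In U2932 it was -0.52 with isotype, -0.06 with OF and -0.23 with R. With isotype 3 of the 10 genes were higher in culture 2 of U2932. Both isotype libraries of U2932 also differed from the R and OF libraries of that line. Their share of ribosomal protein genes was 4.756% and 4.453%, where the others had 6.044% to 6.572%. They held 20244698 and 21191535 counts, where the others had 16521068 to 18841457. Their mitochondrial share, 6.133% and 6.366%, lay within the range of the others. Every U2932 comparison with isotype lies across this difference. The part that library composition plays in the results was not tested.

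**Figure D1:**
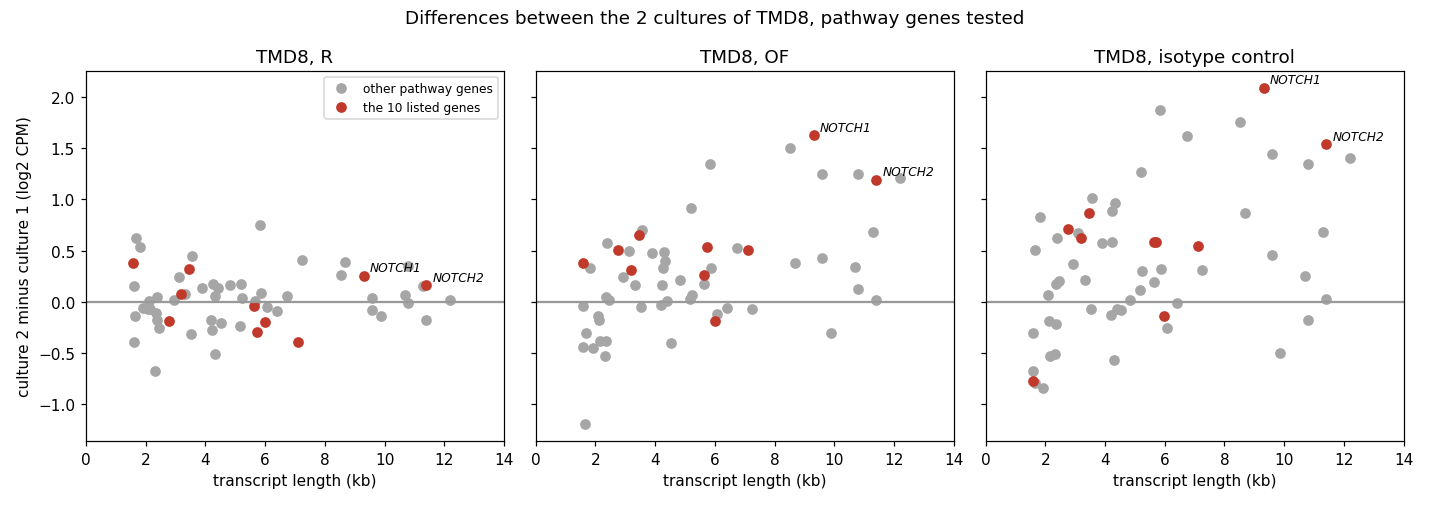
Difference between cultures 2 and 1 of TMD8 (log2 CPM, y axis) against transcript length in kb (x axis) for the Notch pathway genes tested, with R, OF or isotype control (I). Each point is 1 gene and the 10 listed genes are red; NOTCH1 stands at 1.63 with OF and 2.09 with isotype.

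DTX2 (ENSG00000091073, chr7:76461676-76505995 of GRCh38, plus strand) encodes a Deltex ligase and was a gene of low level. In U2932 it had 129 and 120 counts with R, 217 and 221 with OF, against 331 and 266 with isotype. TMM scaling, a normalization that allows for composition, gave 7.24 and 6.35 CPM with R. The OF libraries stood at 12.65 and 12.42 CPM, and those with isotype at 14.80 and 11.65 CPM. Both R libraries lay below all 4 others, and the OF values lay within the range of the isotype values. The log2 fold change was -0.89 (SE 0.157) for R against OF, -0.96 (SE 0.153) for R against isotype and -0.07 (SE 0.143) for OF against isotype. The first of these is the value that chose the gene: DTX2 was the 1 gene of 14635 tested (0.00683%) past an adjusted p of 0.30 and 1.5-fold, the limits used for this comparison. The genes next in order were RN7SL2 at -0.78 and SOCS3 at -0.97 on the log2 scale, and neither passed. This order restates the choice of DTX2 and is no test of it.

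TMD8, which played no part in the choice of DTX2, gave the gene 145 and 133 counts with R, 181 and 275 with OF, against 217 and 575 with isotype. In CPM the R libraries stood at 9.43 and 8.26, the OF libraries at 12.42 and 17.71 and the isotype libraries at 12.38 and 20.40. As in U2932, both R libraries lay below the other 4 libraries of the line, but the 2 cultures of the OF and isotype groups lay far apart. R against OF was -0.77 on the log2 scale (SE 0.295) and did not pass the limits used for every comparison but R against OF in U2932, an adjusted p under 0.10 and 1.5-fold or more (unadjusted p = 0.0364, adjusted p = 0.733 by edgeR). R against isotype was -0.89 (SE 0.292) and also did not pass (adjusted p = 0.227), but passed at -0.85 with the culture as a replicate block (adjusted p = 0.046), at -0.90 when all 12 libraries were fitted together (adjusted p = 0.053) and at -0.88 with no filter on low counts (adjusted p = 0.0246). Without isotype culture 1 of TMD8 it was -1.18 and passed as well (adjusted p = 0.0894). Without the 2 libraries that stood apart, the difference from isotype was -0.50 (adjusted p = 0.044), under 1.5-fold, and that from OF was -0.49 (adjusted p = 0.195). With a correction for GC content R against OF was -0.41 (adjusted p = 0.965). OF against isotype was -0.12 (SE 0.286, adjusted p = 0.904), and -0.01 without the 2 libraries (adjusted p = 0.991).

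Across the 6 conditions the mean level of DTX2 ran from 6.79 CPM ± 0.626 (SD, n = 2) in U2932 with R and 8.84 ± 0.825 in TMD8 with R to 12.54 ± 0.164 in U2932 with OF, 13.22 ± 2.23 in U2932 with isotype, 15.07 ± 3.74 in TMD8 with OF and 16.39 ± 5.67 in TMD8 with isotype. The first 2 groups did not overlap with any other, and the last 4 overlapped with each other. Between the lines with isotype DTX2 did not pass the limits, at -0.32 for U2932 against TMD8 (SE 0.239, adjusted p = 0.27). This value turned on single TMD8 libraries: without isotype culture 1 it was -0.62 and passed (adjusted p = 0.0198), and without culture 2 it was 0.09, of the other sign. With the GC content correction it was -0.02 (adjusted p = 0.909). In these bulk libraries fewer cells with a transcript and less of it in each cell cannot be told apart.

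The count of DTX2 may be short of its reads. Of the 50-base windows of its longest transcript, 44.9% also occur in transcripts of other genes, most of them in the pseudogene DTX2P1 and the readthrough gene DTX2P1-UPK3BP1-PMS2P11 on the same chromosome. At 75 bases this share was 35.5%. DTX2P1 had 0 to 5 counts per library and the readthrough gene 5 to 13, with 9 and 7 in the R libraries and 8 and 11 in the OF libraries of U2932. Among the other 9 genes the share at 50 bases was at most 7.92%, for MAML2, and 4.65% for NOTCH2. How reads that fit several genes were counted is not given in the sources used here, so DTX2 is uncertain in level.

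**Figure D2:**
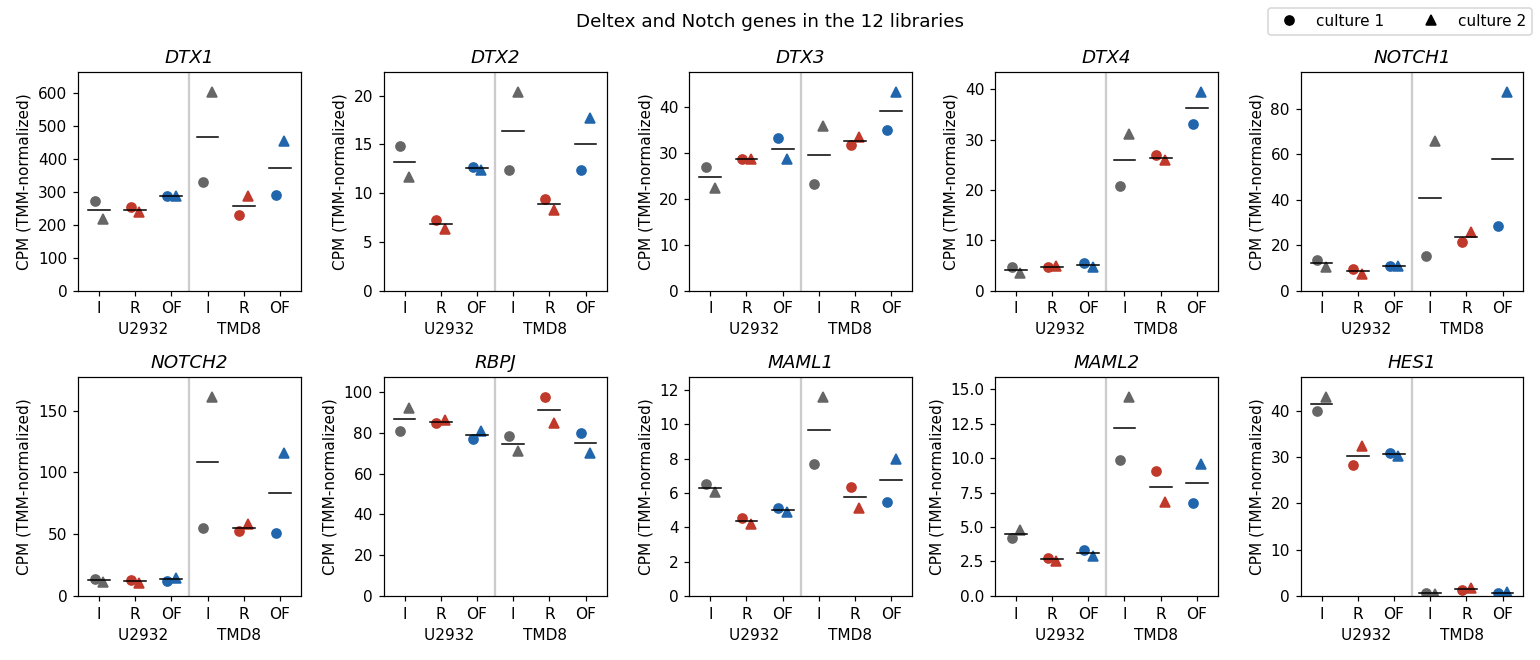
TMM-normalized CPM (y axes, from 0) of the 10 genes in the 12 libraries, by cell line and antibody (I, isotype control; R, rituximab; OF, ofatumumab). Circles are culture 1, triangles culture 2 and bars the mean of the 2; DTX2 is lowest with R in each line, and HES1 is at 28.32 CPM or more in U2932 and at 1.80 CPM or less in TMD8.

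DTX1 (ENSG00000135144, chr12:113056709-113098028, plus strand), itself a target of Notch in lymphocytes, was the most abundant of the Deltex genes in every library per kilobase of transcript. In U2932 it stood at 252.4 and 238.4 CPM with R, 287.7 and 288.5 with OF, against 271.0 and 215.8 with isotype. The OF libraries lay above the others, and those of R lay within the range of isotype. The difference of R from isotype was 0.01 on the log2 scale (SE 0.0955, adjusted p = 0.949), and OF against isotype was 0.25 (SE 0.0954, adjusted p = 0.0511), under 1.5-fold. R against OF was -0.24 (SE 0.0956, unadjusted p = 0.0202, adjusted p = 0.91 by edgeR).

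In TMD8 DTX1 stood at 229.2 and 285.5 CPM with R, 288.7 and 455.1 with OF, against 329.6 and 603.1 with isotype. Both R libraries lay below the other 4. Against isotype R stood at -0.85 (SE 0.338, adjusted p = 0.292 by edgeR), and -0.79 (adjusted p = 0.0217) with the replicate block, which passes the limits. Without the 2 libraries that stood apart it was -0.37 (adjusted p = 0.0108), under 1.5-fold. OF against isotype was -0.32 (SE 0.336, adjusted p = 0.735), and -0.20 without these libraries (adjusted p = 0.336). With no filter on low counts R against isotype also passed (-0.85, adjusted p = 0.0124).

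DTX3 (ENSG00000178498, chr12:57604622-57609804, plus strand), a short Deltex protein without WWE domains, had its lowest values with isotype in U2932. They were 27 and 22.37 CPM there, 28.71 and 28.63 with R and 33.18 and 28.78 with OF. OF against isotype was 0.33 on the log2 scale (SE 0.116, adjusted p = 0.0314 by edgeR), under 1.5-fold, and R against isotype was 0.22 (SE 0.116, adjusted p = 0.18). In TMD8 it ranged from 23.29 to 43.35 CPM, and the 2 isotype libraries, at 23.29 and 35.87 CPM, spanned both R libraries and 1 of the OF libraries. R against isotype was 0.15 (SE 0.228, adjusted p = 0.783 by edgeR) and OF against isotype 0.41 (SE 0.228, adjusted p = 0.477). In the fit without the libraries that stood apart these were 0.48 (adjusted p = 0.0097) and 0.58 (adjusted p = 0.0073), both past the limit on the adjusted p-value and under 1.5-fold.

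DTX4 (ENSG00000110042, chr11:59171430-59208587, plus strand), a ligase best known for the ubiquitination of TBK1, ran from 3.59 to 5.48 CPM in U2932 and was higher in TMD8. Its values in U2932 were 4.77 and 4.82 CPM with R, 5.48 and 4.78 with OF, against 4.74 and 3.59 with isotype. In TMD8 they were 26.84 and 26.02 CPM with R, 33.00 and 39.49 with OF, against 20.72 and 31.11 with isotype. Both OF libraries of TMD8 lay above the others, and OF against isotype was 0.49 on the log2 scale (SE 0.218, adjusted p = 0.376 by edgeR). This became 0.66 and passed the limits (adjusted p = 0.0021) without the 2 libraries that stood apart, and R against isotype went from 0.04 (adjusted p = 0.952) to 0.34 (adjusted p = 0.0923), under 1.5-fold.

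The remaining family member DTX3L (ENSG00000163840, chr3:122564238-122575203), a partner of PARP9 in the response to DNA damage and interferon, was read beside the 10 genes. It did not pass the limits in any antibody comparison, with values of 22.94 to 29.33 CPM in U2932 and 199.2 to 276.3 CPM in TMD8. PARP9 overlaps 3.7% of its exonic bases on the other strand, and whether counting used the strand is not given in the sources used here.

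NOTCH1 (ENSG00000148400, chr9:136494433-136545786, minus strand) and NOTCH2 (ENSG00000134250, chr1:119911553-120069626, minus strand) encode the receptors, on transcripts of 9.31 and 11.4 kb. In U2932 NOTCH1 stood at 9.59 and 7.30 CPM with R, 10.79 and 11.07 with OF, against 13.59 and 10.51 with isotype. Both R libraries lay below the other 4. With R the difference from isotype was -0.52 (SE 0.158, adjusted p = 0.016 by edgeR), under 1.5-fold, R against OF was -0.38 (SE 0.164, unadjusted p = 0.0288, adjusted p = 0.91) and OF against isotype was -0.14 (SE 0.154, adjusted p = 0.556).

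In TMD8 NOTCH1 stood at 21.64 and 25.83 CPM with R, 28.27 and 87.60 with OF, against 15.41 and 66.13 with isotype. Within OF and within isotype the 2 cultures lay further apart than the antibody means. Against isotype R was at -0.77 (SE 0.712, adjusted p = 0.64 by edgeR), but 0.61 and called higher (adjusted p = 0.0015) without the 2 libraries that stood apart. In the same way OF against isotype went from 0.51 (SE 0.702, adjusted p = 0.812) to 0.87 (adjusted p = 6.35e-05). Each of these 2 calls rests on 1 isotype library, and the second also on 1 OF library. With no filter on low counts NOTCH1 was instead called lower with R, at -0.77 against isotype (adjusted p = 0.031) and -1.28 against OF (adjusted p = 0.000775 by edgeR). Against isotype this is the same log2 fold change with an SE of 0.228 in place of 0.712, and the isotype libraries spanned both R libraries. Without the 2 libraries that stood apart R against OF was -0.25 on the log2 scale.

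NOTCH2 in U2932 was 12.79 and 10.58 CPM with R, 12.19 and 14.61 with OF, against 13.64 and 11.51 with isotype, and the 3 groups overlapped. In TMD8 it was 52.32 and 58.43 CPM with R, 50.57 and 115.6 with OF, against 55.30 and 161.1 with isotype. R against isotype was -0.95 (SE 0.535, adjusted p = 0.432 by edgeR) and -0.01 (adjusted p = 0.977) without the 2 libraries, so that this difference lay in 1 culture. NOTCH2 did not pass the limits in any antibody comparison as fitted here, but with no filter on low counts R against isotype in TMD8 did (-0.96, adjusted p = 0.00269).

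RBPJ (ENSG00000168214, chr4:26163455-26435131, plus strand), which holds the complex on DNA, had the smallest ratio between its highest and lowest library of the 10 genes. Its values ran from 76.80 to 92.12 CPM in U2932 and from 70.08 to 97.63 CPM in TMD8. No antibody difference passed the limits, the largest being 0.30 for R against isotype in TMD8 (SE 0.166, adjusted p = 0.434 by edgeR), where both R libraries lay above the other 4. It was 0.21 without the 2 libraries that stood apart (adjusted p = 0.237).

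MAML2 (ENSG00000184384, chr11:95976598-96343180, minus strand), a coactivator of the Notch complex, was the 1 gene of the list besides DTX2 past the limits with an antibody. In U2932 it had 49 and 48 counts with R, 57 and 51 with OF, against 94 and 109 with isotype, or 2.75 and 2.54, 3.32 and 2.87, and 4.20 and 4.77 CPM. Both isotype libraries lay above the 4 anti-CD20 libraries. Over all genes of U2932, CPM did not overlap between R and isotype for 59.7% and between OF and isotype for 64.2%. MAML2 fell by 0.76 on the log2 scale with R (SE 0.217, adjusted p = 0.0094 by edgeR), and was -0.53 with OF (SE 0.213, adjusted p = 0.0614), under 1.5-fold. The call with R was lost when all 12 libraries were fitted together (-0.76, adjusted p = 0.152). Of its exonic bases 7.72% lie under the antisense gene AP000779.1.

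In TMD8 MAML2 was at 9.04 and 6.83 CPM with R, 6.72 and 9.60 with OF, against 9.87 and 14.44 with isotype. Both isotype libraries were again the highest. The difference of R from isotype was -0.61 (SE 0.286, adjusted p = 0.358 by edgeR) and OF against isotype -0.57 (SE 0.286, adjusted p = 0.427), neither past the limits. They were -0.33 (adjusted p = 0.266) and -0.56 (adjusted p = 0.109) without the 2 libraries that stood apart.

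MAML1 (ENSG00000161021, chr5:179732850-179777286, plus strand), its paralogue, was at 4.54 and 4.18 CPM with R, 5.13 and 4.89 with OF, against 6.53 and 6.09 with isotype in U2932. The 3 groups did not overlap. Against isotype R was at -0.53 (SE 0.181, adjusted p = 0.0288 by edgeR), under 1.5-fold, and OF against isotype was -0.33 (SE 0.179, adjusted p = 0.178). In TMD8 it was at 6.37 and 5.15 CPM with R, 5.49 and 7.99 with OF, against 7.71 and 11.60 with isotype, with R against isotype at -0.74 (SE 0.295, adjusted p = 0.293). The replicate block gave -0.72 there, past the limits (adjusted p = 0.0983), whereas without the 2 libraries that stood apart it was -0.43 (adjusted p = 0.182).

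HES1 (ENSG00000114315, chr3:194136145-194138732, plus strand), a repressor that is transcribed within minutes to hours of Notch activation, was highest with isotype in U2932 and with R in TMD8. In U2932 it had 505 and 612 counts with R, 531 and 540 with OF, against 896 and 983 with isotype, or 28.32 and 32.38, 30.97 and 30.35, and 40.06 and 43.04 CPM. Both isotype libraries lay above the other 4. R against isotype was -0.45 (SE 0.106, adjusted p = 0.00196 by edgeR) and OF against isotype -0.43 (SE 0.106, adjusted p = 0.00283), both past the limit on the adjusted p-value and under 1.5-fold. R against OF was -0.02 (SE 0.109, adjusted p = 0.985).

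In TMD8 HES1 had only 21 and 29 counts with R, 9 and 13 with OF, against 12 and 10 with isotype. In CPM the R libraries stood at 1.37 and 1.80, the OF libraries at 0.618 and 0.837 and the isotype libraries at 0.685 and 0.355. Both R libraries lay above the other 4, and OF and isotype overlapped. R against isotype was 1.66 on the log2 scale (SE 0.449, adjusted p = 0.165 by edgeR), which did not pass. With the replicate block it was 1.68 (adjusted p = 0.0511) and with no filter on low counts 1.67 (adjusted p = 0.0311), which did, and without the 2 libraries that stood apart it was 1.19 (adjusted p = 0.131).

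The difference between the lines in the response of HES1 to R was itself called. The interaction of cell line with R against isotype was -2.14 for U2932 against TMD8 (SE 0.354, adjusted p = 0.0511 by edgeR). It was the 1 call among the 9 genes tested there, beside 0.321% of all genes, and the call was lost without any 1 of 8 of the 12 libraries. For OF the interaction was -1.01 (SE 0.405, adjusted p = 0.518), with 0 of 9 genes called beside 0.105% of all genes, and 0 were called for R against OF beside 0% (by edgeR and DESeq2, with 1 and 1 at an unadjusted p under 0.05, beside 2.27% of all genes by edgeR). With the replicate block DTX1 was also called, at 0.82 (adjusted p = 0.0369). In the fit without both TMD8 libraries that stood apart the HES1 interaction for R was -1.66 and still called (adjusted p = 0.0108), and that for OF was -0.29. The 2 interactions share the isotype libraries. The interaction fit takes 1 spread per gene over both lines, and HES1 has far fewer counts in TMD8. The SE of the HES1 interaction for R is smaller than that of R against isotype fitted within TMD8, which did not pass.

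**Figure D3:**
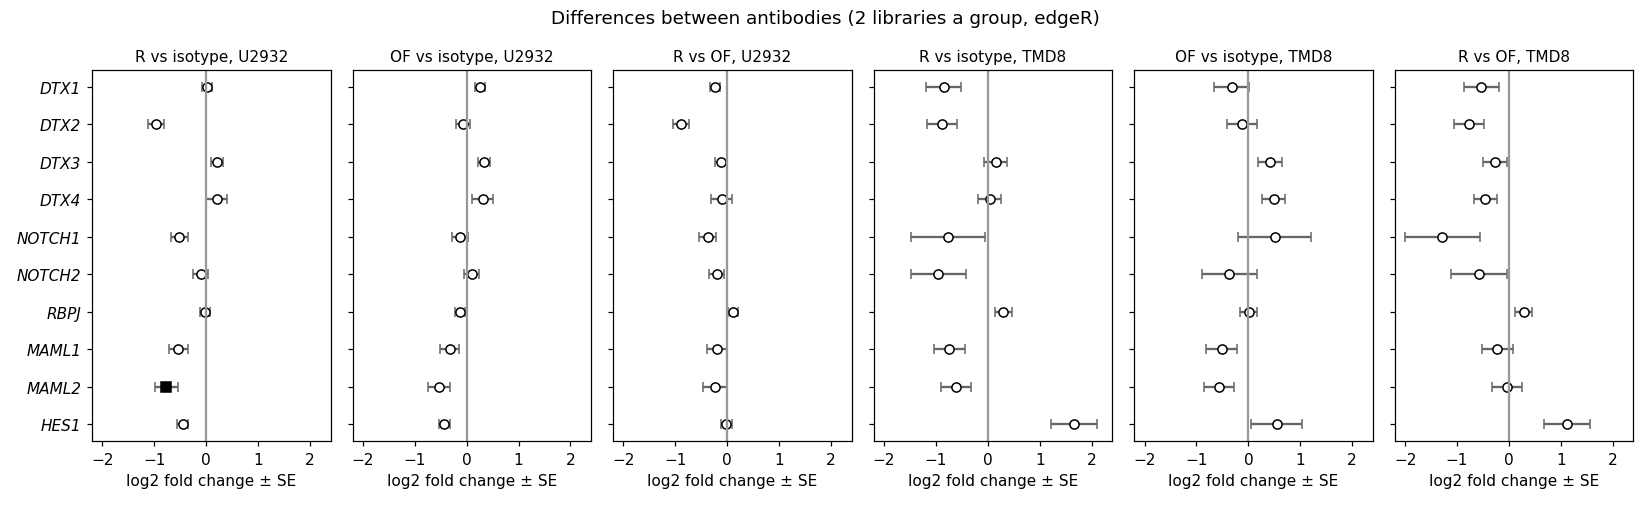
Log2 fold change ± SE (x axis) of the 10 genes in the 6 antibody comparisons, 2 libraries a group. The filled square is the gene past the limits, MAML2 with R in U2932 at -0.76; open circles did not pass or, for DTX2 in U2932, were not tested, and the SEs are wider in TMD8.

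Counted over the list, R called 1 of the 9 tested genes against isotype in U2932 (MAML2, lower), beside 10.2% of all genes in either direction and 5.02% lower, and OF called 0 of 9, beside 11.1%. By the adjusted p-value alone 4 of 9 passed with each antibody: NOTCH1, MAML1, MAML2 and HES1 with R, and DTX1, DTX3, MAML2 and HES1 with OF. Of all genes 34.2% and 36.4% passed in this way. With the replicate block and GC content correction together DTX1 and DTX3 did not pass with OF, at 0.07 (adjusted p = 0.451) and 0.18 (adjusted p = 0.132), and none of the 9 genes passed with either antibody when all 12 libraries were fitted together, where the adjusted p of HES1 was 0.16 with each. Between R and OF 0 of the 9 genes besides DTX2 were called by edgeR or DESeq2, with 2 at an unadjusted p under 0.05, beside 5.10% of all genes. The median log2 fold change of the 9 genes was -0.11 with R and -0.13 with OF against isotype and -0.21 for R against OF, beside -0.02, 0.01 and 0.00 over all genes tested. CPM of R and OF did not overlap for 6 of these 9 genes, of which 5 were lower with R, beside 40.8% of all genes. From isotype 6 of the 9 stood apart with R and 6 with OF, beside 59.7% and 64.2% of all genes.

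In TMD8 edgeR and DESeq2 called 0 of 10 genes in each antibody comparison (DESeq2 gave HES1 no adjusted p against isotype), beside 0.647% of all genes by edgeR for R against isotype, 0.815% for OF against isotype and 0% for R against OF. At an unadjusted p under 0.05 there were 4, 0 and 2 genes, beside 15.9%, 14.1% and 4.09% of all genes. Without the 2 libraries that stood apart 1, 2 and 0 of the 10 were called, beside 13.4%, 12.4% and 0.910% of all genes. CPM of R and OF did not overlap for 6 of the 9 genes besides DTX2, of which 4 were lower with R, beside 46.0% of all genes. From isotype 5 of these 9 did not overlap with R and 2 with OF, beside 47.8% and 38.6% of all genes. The median log2 fold change of the 10 genes was -0.68 for R against isotype, beside -0.02 over all genes tested, and -0.36 for R against OF, beside 0.01. The medians without these libraries were 0.10 and -0.02, beside 0.00 and 0.01. The median SE of a log2 fold change for R against isotype was 0.251 over all genes of TMD8 and 0.124 in U2932.

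The 2 comparisons with isotype of a line share their control libraries. CD20 itself, MS4A1, rose with R by 0.78 (SE 0.0831, adjusted p = 1.09e-07 by edgeR) and with OF by 0.67 (SE 0.083, adjusted p = 1.04e-06) in U2932. In TMD8 R gave 0.94 (SE 0.279, adjusted p = 0.188), and OF gave 0.61 (SE 0.277, adjusted p = 0.384). Leaving out the 2 libraries that stood apart gave 0.69 (adjusted p = 2.21e-08) and 0.56 (adjusted p = 0.000184), of which the first passed the limits.

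The list was set beside 61 other genes of the pathway, from ligands to targets, making 71 in all, of which 57 could be tested in U2932 and 59 in TMD8. In U2932 R called 7 of 56 (12.5%, DTX2 not counted), 1 higher and 6 lower, beside 10.2% of all genes and 5.02% lower, with a median log2 fold change of -0.12 over the 56. They included 4 of the 8 DNA-binding and coactivator genes tested. CREBBP and EP300, the acetyltransferases that the Notch complex recruits, fell by 1.04 (SE 0.112, adjusted p = 1.07e-07 by edgeR) and 0.79 (SE 0.115, adjusted p = 1.08e-05) on the log2 scale. CREBBP went from 70.86 and 64.53 CPM with isotype to 36.90 and 28.84 CPM with R, and both R libraries lay below isotype. KAT2A, another acetyltransferase, rose by 0.71 (SE 0.111, adjusted p = 2.99e-05).

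The other calls with R in U2932 were single genes of their groups. CIR1, an RBPJ-binding corepressor, fell by 0.60, AAK1, a kinase of endocytosis, by 0.67 and the target gene HEY2 by 0.61 on the log2 scale. No ligand, receptor, glycosylation or cleavage gene was called with R in U2932. With OF 4 of 56 were called (7.14%), beside 11.1% of all genes: CREBBP fell by 0.76 and EP300 by 0.63, KAT2A rose by 0.76 and MYC rose by 0.71. MYC is a Notch target in some leukaemias and is under many other controls.

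In TMD8 edgeR called 0 of 59 pathway genes between R and isotype, with 14 at an unadjusted p under 0.05 (beside 15.9% of all genes), and DESeq2 called 3 (CREBBP, MYC and ADAM10). The 2 with the smallest p were MYC, at 0.87 (SE 0.163, adjusted p = 0.104), and ADAM10, the protease that cuts Notch once a ligand has bound, at 0.62 (SE 0.148, adjusted p = 0.144). With the replicate block 11 were called, among them DTX2, DTX1, MAML1 and HES1. OF called MYC alone (1.69% of 59, beside 0.815% of all genes), which rose by 1.19 (SE 0.164, adjusted p = 0.0851) from 130.0 and 146.9 CPM to 310.7 and 319.6 CPM. With the replicate block this count was 3. Shares of all genes called by DESeq2 and with the replicate block are not given here. Without the 2 libraries that stood apart MYC was at 0.94 and ADAM10 at 0.61 with R, and MYC was at 1.25 with OF.

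Between R and OF 0 pathway genes were called in either line by edgeR or DESeq2. At an unadjusted p under 0.05 there were 8 of 56 in U2932 and 4 of 59 in TMD8, beside 5.10% and 4.09% of all genes. Among those with the smallest p were AAK1 in U2932, with a log2 difference of -0.43 (SE 0.143), and NEDD4, a ubiquitin ligase, and DTX2 in TMD8, at 0.78 (SE 0.243) and -0.77. The adjusted p-values by edgeR were 0.91 in U2932 and 0.733 in TMD8. NEDD4 was called in TMD8, at 0.74 (adjusted p = 0.0767), without the 2 libraries that stood apart.

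The lines themselves differed far more than the antibodies. With isotype 7 of the 10 genes were called between U2932 and TMD8, beside 56.1% of all genes: HES1 was higher in U2932 (1 of 10, beside 28.1%) and 6 of 10 lower (beside 28.0%), namely DTX1, DTX4, NOTCH1, NOTCH2, MAML1 and MAML2. HES1 was higher by 6.39 on the log2 scale, or 84.0-fold (SE 0.244, adjusted p = 4.28e-09 by edgeR). NOTCH2 stood at -3.11 on that scale (SE 0.47, adjusted p = 0.000151), DTX4 at -2.64 (SE 0.217, adjusted p = 1.13e-06), NOTCH1 at -1.77 (SE 0.589, adjusted p = 0.0222) and MAML2 at -1.44 (SE 0.244, adjusted p = 0.000341). DTX1 was at -0.94 (adjusted p = 0.0114) and MAML1 at -0.62 (adjusted p = 0.0367).

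Of these calls, those of DTX1, NOTCH1 and MAML1 were lost without the isotype library of culture 2 of TMD8, at -0.44, -0.36 and -0.29 on the log2 scale, and those of HES1, NOTCH2, DTX4 and MAML2 were not. The NOTCH1 call was also lost without culture 2 of the U2932 isotype group (-1.59, adjusted p = 0.134) and that of MAML1 without either U2932 isotype library. RBPJ (0.21, adjusted p = 0.173) and DTX3 (-0.27, adjusted p = 0.259, and 0.08 without that TMD8 library), like DTX2, did not pass. The median log2 fold change of the 10 genes was -0.78, beside -0.02 over all genes tested.

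**Figure D4:**
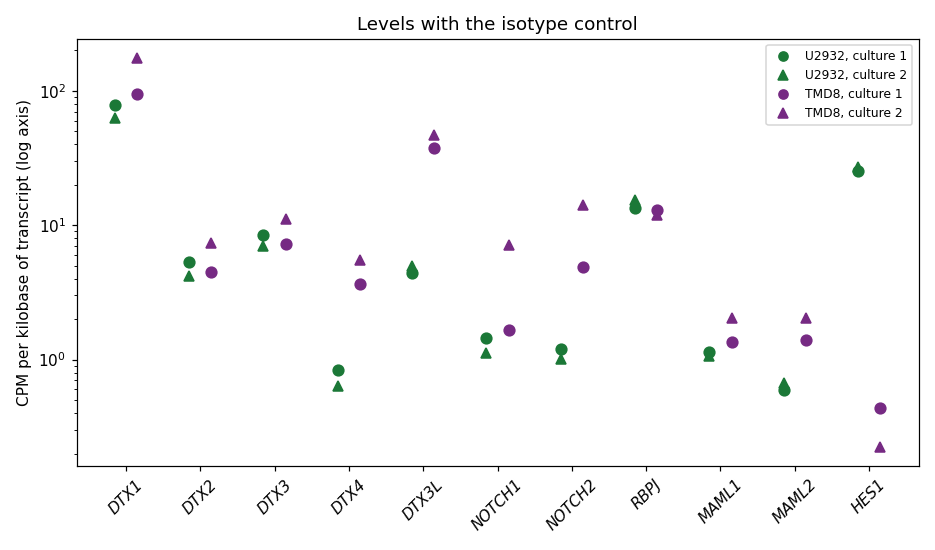
Level per kilobase of transcript with the isotype control (CPM per kb, log y axis) of the 10 genes and DTX3L in U2932 (green) and TMD8 (purple). Each point is 1 library; HES1 is at 25.4 and 27.3 CPM per kb in U2932 and 0.434 and 0.225 in TMD8, and NOTCH2 and DTX4 are the other way round.

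Set in order per kilobase of transcript with isotype, U2932 held DTX1 at 70.5 CPM per kb ± 11.3 (SD, n = 2), HES1 at 26.3 ± 1.34, RBPJ at 14.5 ± 1.30, DTX3 at 7.72 ± 1.02 and DTX2 at 4.78 ± 0.805. NOTCH1, NOTCH2 and MAML1 followed between 1.1 and 1.3 CPM per kb on average, and these neighbours did not differ beyond their spread. DTX4 at 0.738 ± 0.144 and MAML2 at 0.632 ± 0.0567 came last, and their libraries overlapped. In TMD8 the order was DTX1 at 135 ± 56.0, RBPJ at 12.5 ± 0.854, NOTCH2 at 9.50 ± 6.57, DTX3 at 9.25 ± 2.78, DTX2 at 5.92 ± 2.05, DTX4 at 4.59 ± 1.30, NOTCH1 at 4.38 ± 3.85, MAML2 at 1.71 ± 0.454, MAML1 at 1.69 ± 0.481 and HES1 at 0.329 ± 0.148. From RBPJ down to MAML1 the libraries of each neighbouring pair overlapped, and of the 10 genes only DTX1 at the top and HES1 at the bottom lay apart from their neighbour.

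Per kilobase, DTX1 made up 80.5% and 78.8% of the summed level of the 5 Deltex genes in the isotype libraries of U2932, and 64.2% and 71.0% in those of TMD8. DTX2 made up 5.48% and 5.30% in U2932 and 3.01% and 3.0% in TMD8, and DTX3L 4.53% and 6.31% against 25.4% and 19.2%. DTX2 was therefore a small part of the family's RNA in both lines.

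Over the pathway 40 of 64 genes tested were called between the lines (62.5%, beside 56.1% of all genes), 18 higher and 22 lower in U2932 (beside 28.1% and 28.0%). Targets of Notch stood on both sides. HEY2 was higher in U2932 by 5.87 on the log2 scale (SE 0.284, adjusted p = 1.83e-08 by edgeR), with CR2 at 3.21 and HES6 at 2.08, whereas MYC was lower, at -4.07 (SE 0.154, adjusted p = 4.22e-09). Of the 14 target genes 10 were tested, and of these 6 were higher and 2 lower, beside 28.1% and 28.0% of all genes.

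Fringe glycosyltransferases, which tune how receptors read their ligands, also split. MFNG was higher in U2932, at 2.19 on the log2 scale (SE 0.14, adjusted p = 1.49e-07 by edgeR), and LFNG lower, at -4.21 (SE 0.389, adjusted p = 2.89e-06). Among ligases of trafficking, NEDD4 was at 2.12 and MIB2 at -2.15, and DTX3L was at -3.17 (SE 0.162, adjusted p = 2.73e-08). The corepressor TLE1 had 0 counts in 5 of the 6 U2932 libraries and 1033 and 2468 counts with isotype in TMD8, at least 552-fold higher there with a floor of 3 counts per library.

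The ligand JAG1 and the Notch feedback regulator NRARP had 0 counts in all 6 TMD8 libraries. With isotype JAG1 had 27 and 27 counts in U2932 and NRARP 46 and 84, at least 8.61-fold and 20.8-fold higher than that floor of 3 counts per library, which covers counting error only. HES4, HES5 and MAML3 also had no count in TMD8, and HES2 and HES5 none in U2932.

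Genes whose pattern over the 12 libraries was most like that of DTX2 were sought by Pearson's r of log2 CPM, centred within each line, over 12721 genes. The highest were RBM38 (r = 0.941), SGPL1 (0.939), ZNF689 (0.929), WASF1 (0.928) and PHC2 (0.923), and the lowest were GOT1 (-0.930), ABCD3 (-0.929) and FASTKD5 (-0.929). Without the 2 TMD8 libraries that stood apart r was 0.898 to 0.929 for the first 5 and -0.901 to -0.930 for the last 3. Within the pathway list the nearest were AAK1 (0.854), MAML1 (0.820), CREBBP (0.807) and JAG2 (0.798), with DTX1 at 0.718 and NOTCH1 at 0.712. Without the 2 TMD8 libraries these were 0.787, 0.758, 0.706, 0.706, 0.537 and 0.564 in the same order, and within U2932 alone DTX1 was at 0.437 and NOTCH1 at 0.912. The points share libraries and depth, these are the extremes of many genes, and no p-value is given. They include the U2932 R and OF libraries that chose DTX2, so the order in part restates that choice.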

How the data were processed

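RNA of 2 DLBCL cell lines was profiled in 12 libraries (6 conditions, 2 libraries each). The authors deposited raw counts of reads per gene by STAR 2.7.0e on GRCh38, after Trim Galore 0.6.0 per the labels' processing notes. The annotation release, the strand setting and the handling of multi-mapped reads are not given in the sources used here. Symbols came from GENCODE 29 and a gene name table (58876 of 58884 genes), and positions, GC content and length of the longest transcript from GENCODE 29 (58611 genes).

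The analysis used edgeR 4.0.16 in R 4.3.3. The 6 libraries of a line were TMM-normalized, filtered with filterByExpr (at least 10 counts) and fitted with 1 mean per antibody by the quasi-likelihood test. Line differences and interactions were fitted on all 12. P-values were Benjamini-Hochberg adjusted over all genes tested. Calls needed an adjusted p under 0.10 (0.30 for R against OF in U2932) and at least 1.5-fold; interactions had no fold limit. The limits on the adjusted p for R against OF follow the study, and the fold limit was added here. CPM are TMM-scaled, with a prior count of 2 for log2 CPM. The steps were run on simulated counts without differences by culture, GC content or transcript length, so that run does not cover such differences. With 2 libraries a group no permutation test could reach 0.05. Depths were 15440226 to 27110612 counts.

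The listed genes, the pathway list, the limits and the tests were chosen with earlier results of these data known. Named pathway genes are those called where 12 or fewer were called, otherwise the 12 with the smallest adjusted p, and the 2 with the smallest p where 0 were called (1 gene that this names is not reported here); 5 genes most like DTX2 and 3 least like it were named by r. JAG1, NRARP, MAML3, HES2, HES4 and HES5 were named after their counts were seen.

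Per the methods each line was split into 2 replicates, which were then treated with the antibodies. That libraries of a line with the same number share a culture was inferred from the titles. Deviations of such libraries from the group means correlated at -0.05 to 0.10 in U2932 and at 0.22 to 0.69 in TMD8. Alternatives were the culture as a replicate block, DESeq2 1.42.0, other normalizations, filters, limits and sets of libraries, and a GC content correction. A transcript length correction and fits without the OF and isotype libraries of culture 2 of TMD8 were chosen after seeing the data.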

Additional observations from a re-analysis of the deposited data

Results flagged for a closer look

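The response of HES1 to R differed between the lines by the test of the interaction itself. The interaction of cell line with R against isotype was -2.14 on the log2 scale (SE 0.354, adjusted p = 0.0511 by edgeR). HES1 was lower with R in 2 of 2 U2932 libraries and higher in 2 of 2 TMD8 libraries. CPM of R and isotype did not overlap, in either direction, for 59.7% of all genes in U2932 and 47.8% in TMD8. Within TMD8 R against isotype did not pass the limits. The TMD8 side rests on 10 to 29 counts per library, and the fit takes 1 spread per gene over both lines. Leaving out 1 library at a time gave -2.60 to -1.66, with adjusted p-values of 0.0155 to 0.289.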

How the results depend on the processing

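For R against isotype in TMD8 the count was 0 as reported, 10 with all 12 libraries in one fit, 12 with no filter, 11 with the replicate block, 8 with the replicate block and GC content correction, 3 by DESeq2, 1 each with at least 10 counts in every library, the GC content correction or the length correction, 7 without both libraries that stood apart and 0 to 3 without 1 library. For OF against isotype in TMD8 it was 1 as reported, 2 in one fit, 4 with no filter, 3 with the replicate block with or without GC content correction, 0 at the stricter limit or with total counts only, 6 without both libraries and 0 to 3 without 1. For R against OF in TMD8 it was 0 as reported, 2 with no filter and 1 without both libraries. In U2932 the 7 calls of R against isotype became 0 in one fit and 23 with no fold limit, and 4 to 10 without 1 library (4 without culture 2 of R). The 4 calls of OF against isotype became 2 in one fit, 22 with no fold limit, 8 with total counts only and 4 to 8 without 1 library (8 without culture 1 of isotype). The 1 interaction with R became 0 with at least 10 counts in every library, 2 by DESeq2 or with no filter, 6 with the replicate block, 11 without both libraries and 0 to 5 without 1. The 0 interactions with OF became 1 by DESeq2 and 3 without both libraries. The cause of these moves was not tested. Except where stated above, the share of all genes called is not given for these alternatives. Their counts show how far the calls move and are no result about the pathway. The replicate block changed the calls of DTX1, DTX2, MAML1 and HES1 given above for TMD8 and of DTX1 in the interaction with R, and no other listed gene's call. No paired analysis was possible for the lines because they share no culture.

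Of 1893 alternative values of the 10 genes, 112 had another sign than the reported value, and in 2 of these the alternative was called. Both were NOTCH1 without both TMD8 libraries, at 0.61 for R against isotype and -1.14 for its interaction. DTX2 in U2932 stayed between -0.99 and -0.79 for R against OF without any 1 library, and was -0.78 with the GC content correction. In TMD8 it stayed between -0.99 and -0.50 without any 1 library, and was -0.41 with the GC content correction, with or without the replicate block. HES1 in TMD8 rests on 9 to 29 counts per library, the lowest depth of the 10 genes.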
